A study of Homo sapiens with 24 samples.

Results

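SJSA-1, an established human osteosarcoma line, was exposed for 6 h to 400 nM THZ2 or to DMSO, the solvent, and its RNA was read on Affymetrix PrimeView expression arrays. The 6 arrays of this comparison were picked by their labels, 3 for each group, out of 24 arrays that cover 2 osteosarcoma lines and 4 conditions. SJSA-1 arrays with 25 and 100 nM THZ2, 3 of each and also at 6 h, lent their spread to the model and their levels are given beside those at 400 nM. The cells of all 12 arrays grew in DMEM with serum and antibiotics, were plated the day before, and were given fresh medium that held THZ2 or DMSO. Every dose is compared with the same 3 DMSO arrays. The data stand for 1 line at 1 time, and the labels do not say whether the arrays of a group came from separate dishes, so p-values measure only the spread between these arrays, which may be technical.

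THZ2 is a covalent inhibitor of CDK7. CDK7, with cyclin H and MNAT1, forms the kinase module of TFIIH, a general transcription factor. It phosphorylates the tail of RNA polymerase II as transcription starts, and it activates the cyclin-dependent kinases of the cell cycle and of elongation. When transcription is held back, messages with a short life disappear first, while stable messages such as those of ribosomal proteins persist. SJSA-1 is known for a gained stretch of chromosome 12q with MDM2, the ligase that degrades p53, and CDK4, the partner of D cyclins.

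At 400 nM WEE1, FBXO5, TFAP2C, ZNF217, TIPARP, NUP153 and FADD, picked from the top of the ranking and from the gene lists, fell to under 6% of their DMSO level. Of 14515 genes tested, 9137 changed (62.9%): 3632 fell (25%) and 5505 rose (37.9%) with the limma model at an adjusted p under 0.05. The falls were larger than the rises: 1818 genes fell at least 2-fold (12.5%) and 592 at least 4-fold, whereas 79 rose at least 2-fold (0.544%) and 6 at least 4-fold. The median size was 2.0-fold among the genes that fell and 1.40-fold among those that rose. All 3 treated arrays lay below the DMSO range for 24.1% of the genes tested and above it for 39.7%.

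**Figure D1:**
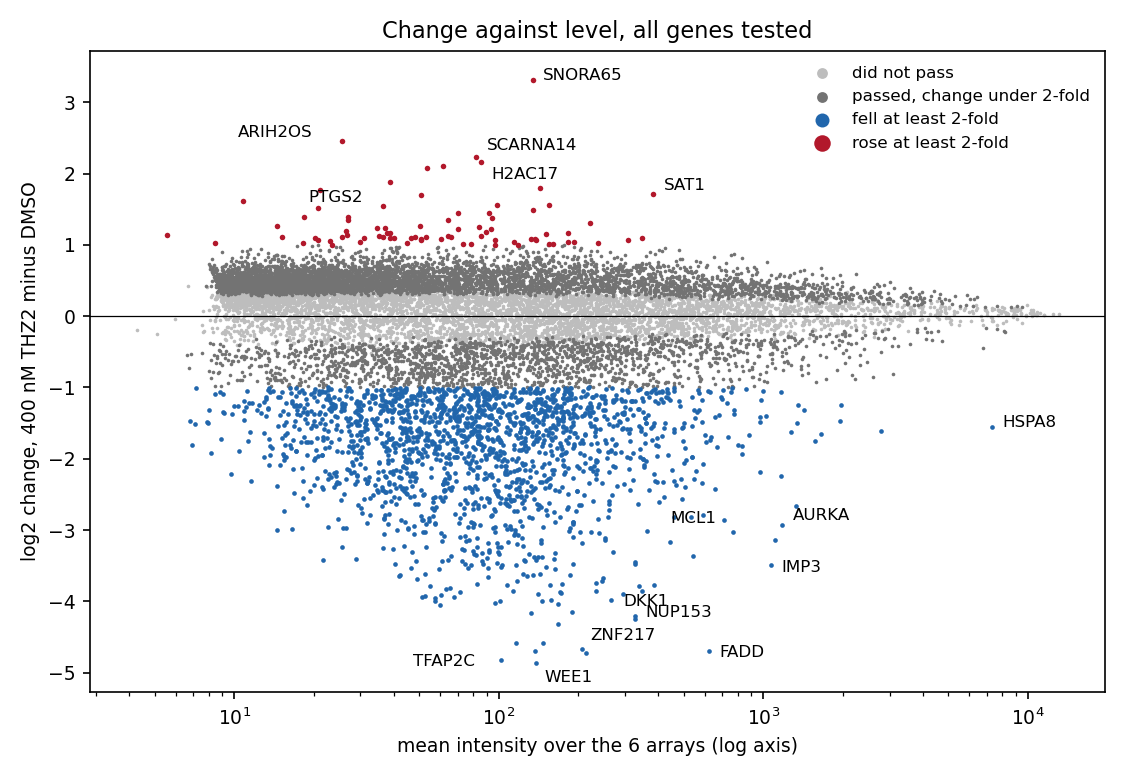
Each point is a gene, placed by its mean intensity over the 6 arrays (x, log axis) and its log2 change at 400 nM THZ2 minus DMSO (y). The blue points, 1818 genes that fell at least 2-fold, reach to -4.87 (WEE1), and the red ones, 79 genes that rose at least 2-fold, to 3.31 (SNORA65); with arrays centred on their poly-A spike-ins, 6 genes rose in all.

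Low readings moved upward more often than high ones. In the dimmest quartile of the genes, with mean intensities from 4.26 to 21.4, 54.5% rose and 11.1% fell, and in the next quartile, up to 60.9, 41.1% rose and 30.1% fell. Between 60.9 and 203.7, 27.2% rose and 36.6% fell, and this quartile held the most falls of at least 2-fold, 736. Above it, 28.9% rose and 22.2% fell.

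Several control readings differed between the arrays. The 12 probe sets of the poly-A spike-ins, bacterial RNAs added to the sample before labelling, averaged 6.54, 7.01 and 7.33 (log2 intensity) in the DMSO arrays and 7.84, 9.0 and 7.33 at 400 nM, a difference of the means of 1.09. Replicate 2 of the 400 nM group stood apart, also in its 18S probe set (3875 against 6165 to 8422 in the other 5 arrays) and in the 3′ to 5′ difference of ACTB (log2 1.71 against 1.05 to 1.47). The SD of the poly-A readings was 0.40 in DMSO and 0.85 at 400 nM. Without replicate 2 of the 400 nM group 4170 genes rose and 3554 fell on the deposited scale. Spike-in centring was not repeated without that array, so how far its counts rest on it was not tested. With every array centred on the spike-ins, the median log2 change of all genes went from 0.19 to -0.90, 6 genes rose and 7236 fell; with arrays centred on their own median it went to 0.51, and 9077 rose and 2579 fell. Thus 60.2% of the calls were rises on the deposited scale, 77.9% with median centring, 54% with centring on ribosomal protein genes and 0.0829% with spike-in centring. Which scale follows the RNA content of the cells was not tested, and in bulk RNA fewer cells and less RNA per cell cannot be told apart. In what follows "rose" and "fell" are on the deposited scale. Counts within a list of genes stand beside 25% fallen and 37.9% risen over all genes tested. These shares differ between the level quartiles given above.

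One extraction text in the labels names brain cortex and a column kit, whereas the treatment text names these cells and TRIzol, so markers of other tissues were read. Of 9 nervous tissue markers 6 were above the intensity filter of 9.85, and their summed intensity ran from 159.5 to 170.5 in DMSO and from 204 to 239.7 at 400 nM. The sums of 6 blood markers (144.3 to 160.4 against 204.3 to 251), 6 epithelial markers (143.1 to 177.4 against 241.4 to 269.7) and 3 endothelial markers (55.5 to 61.5 against 75.6 to 96.9) were higher at 400 nM too. NEFL, AQP4, SYT1, PTPRC, LYZ and CDH1 stayed under the filter in both groups. Of the blood markers 4 were above it, of the epithelial ones 5 and of the endothelial ones 3. Markers above the filter with higher means at 400 nM include GFAP, 35.7 and 49.5, SNAP25, 33.0 and 47.0, EPCAM, 61.8 and 96.2, CD68, 51.0 and 86.7, and PECAM1, 23.8 and 37.8, in DMSO and THZ2. The part of these readings in the rises of other dim genes was not tested. The 19 osteoblast lineage genes summed to 14950 to 15920 in DMSO and to 13450 to 16110 at 400 nM, and 16 of them were above the filter.

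The genes with the deepest falls had varied roles. WEE1, the kinase that keeps CDK1 inactive before mitosis, read 317, 254 and 228 in the DMSO arrays and 8.0, 8.17 and 11.3 at 400 nM, a log2 change of -4.87 ± 0.16 (standard error, limma, n = 3 per group, adjusted p = 3.76e-14). Its mean at 400 nM lay under the filter, so the fall is at least 25.6-fold. FBXO5, the inhibitor of the anaphase-promoting complex, read 458, 343 and 437 with DMSO and 13.2, 12.8 and 21.9 with THZ2 (log2 -4.73 ± 0.20). The groups are far apart for both genes, and no treated array comes within 10-fold of a DMSO array.

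TFAP2C, the transcription factor AP-2 gamma, went from 187, 199 and 201 to 5.94, 8.40 and 6.73, a fall of at least 19.9-fold. For ZNF217, a zinc finger factor that acts as an oncogene in breast cancer, 488, 309 and 391 with DMSO stood against 16, 15.9 and 14.3 (log2 -4.66 ± 0.15). TIPARP, a mono-ADP-ribosyltransferase induced by the dioxin receptor, read 311, 284 and 252 without and 11.2, 11.4 and 12.7 with THZ2 (log2 -4.58 ± 0.15). Each of these genes was left at about the same low level in all 3 treated arrays. PNRC1, a coactivator of nuclear receptors, fell at least 22.5-fold, NRIP1, a corepressor of nuclear receptors, at least 11.2-fold, and PTGER4, a receptor of prostaglandin E2, at least 10.9-fold.

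Further down the ranking, NUP153, of the nuclear basket of the pore, read 749.6, 600.5 and 519 in DMSO and 26.7, 29.9 and 42.5 at 400 nM (log2 -4.25 ± 0.17, 19.0-fold lower). SLC38A2, a carrier of small neutral amino acids, read 704, 644 and 519 against 30.7, 30.9 and 39.4 (log2 -4.21 ± 0.14). It was the only 1 of 26 amino acid transporters tested to fall at least 2-fold: 6 fell (23.1%, against 25% of all genes) and 4 rose, with a median of 0.08 that turned to -0.98 with spike-in centring. EFNB2, a membrane ligand of Eph receptors, fell 17.9-fold, from a mean of 250.1 ± 18.7 (SD) to 14.2 ± 3.40. DKK1, a secreted inhibitor of Wnt signals that osteosarcoma cells often release, stood at 495, 495 and 512 in DMSO and at 35.3, 30.3 and 30.3 after THZ2 (15.7-fold lower, log2 -3.97 ± 0.14). Further falls of 14.8- to 17.8-fold were those of PHLDA1, SPRED2, which restrains RAS signals, TRIM32, a ubiquitin ligase, DDX20, a helicase of the SMN complex, SCAF4, which keeps the polymerase from ending transcripts early, and FOSL1, an AP-1 subunit.

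No rise was as large as these falls, and 4 of the 6 rises of at least 4-fold described here are of probe sets named for small noncoding RNAs. SNORA65, a small nucleolar RNA that guides pseudouridylation, read 16.4, 27.1 and 29.9 in the DMSO arrays and 234, 329 and 170.1 at 400 nM (log2 3.31 ± 0.21, adjusted p = 8.62e-11 with limma). The Cajal body RNA SCARNA14 went from 19.7, 36.5 and 31.6 to 147, 150.1 and 108 (log2 2.24 ± 0.18). ARIH2OS, transcribed opposite ARIH2, read 8.06, 7.26 and 8.34 with DMSO, under the filter, and 39.7, 47.2 and 43.1 with THZ2, at least 4.39-fold higher. H2AC17, a replication-dependent histone H2A gene, read 24.9, 36.8 and 32.7 against 161, 127 and 131 (log2 2.16 ± 0.16). With SNORA30 and SNORA84, these are the 6 genes that still rose when arrays were centred on the poly-A spike-ins, by 2.22 for SNORA65, 1.37 for ARIH2OS, 1.15 for SCARNA14, 1.07 for H2AC17, 1.01 for SNORA30 and 0.99 for SNORA84.

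Among protein-coding genes outside the histones, SAT1, the acetylase that starts polyamine breakdown, rose from 184, 163 and 190.0 to 600.5, 553 and 605 (log2 1.71 ± 0.11), although 1 of its 3 probe sets had the opposite sign. PTGS2, the inducible cyclooxygenase, read 22.5, 18.4 and 14.1 in DMSO and 41.9, 43.7 and 78.2 at 400 nM (log2 1.54 ± 0.22). RABGEF1, an exchange factor for Rab5, rose 3.70-fold, C11orf96 3.25-fold and RRAD, a small GTPase-like protein of muscle, 2.40-fold. None of these 5 rises passed with the spike-in centring.

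**Figure D2:**
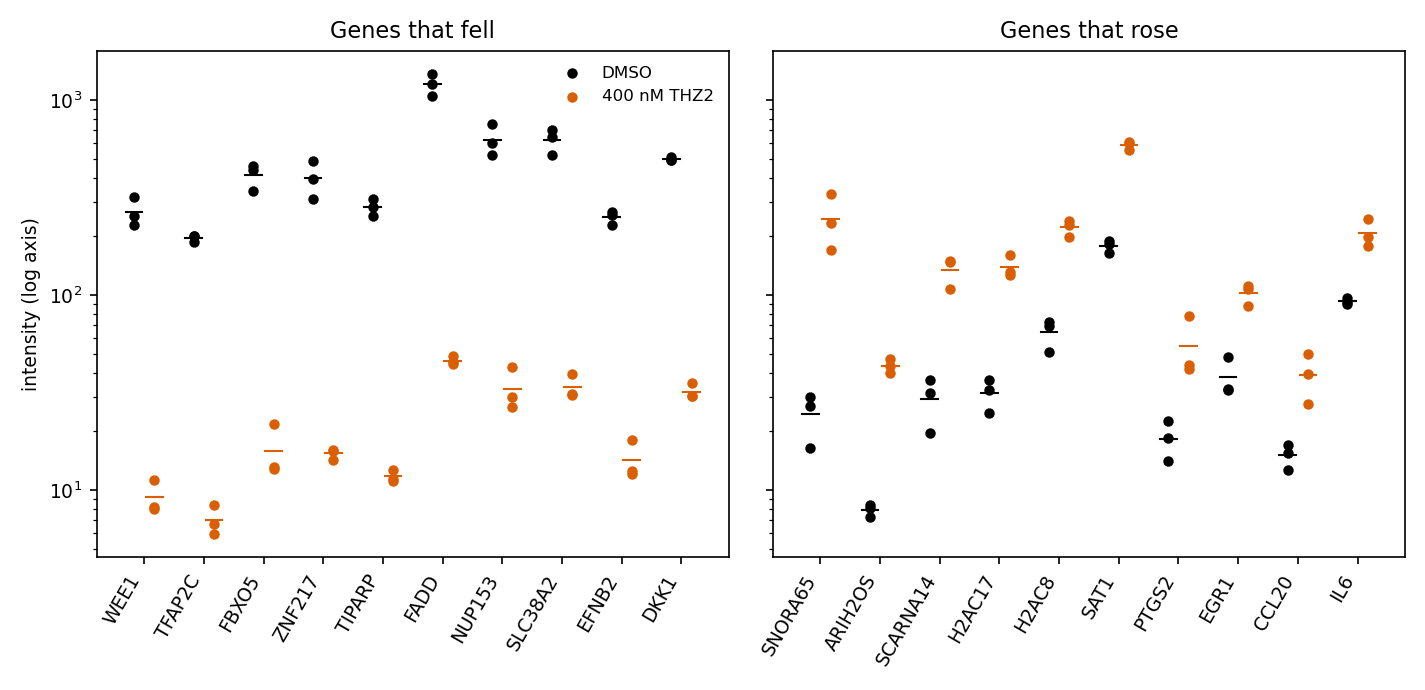
Intensity (log axis) of 10 genes that fell and 10 that rose, with 1 point per array and a short line at the mean of the 3 arrays of a group (black DMSO, orange 400 nM THZ2). The groups do not overlap for any gene shown, and most of these genes were picked by a rule that requires it. WEE1 runs from 228 to 317 with DMSO and from 8.0 to 11.3 with THZ2, and IL6 from 89.9 to 97.0 against 179 to 246. Over all genes tested, the 3 treated arrays lay below the DMSO range for 24.1% and above it for 39.7%. With arrays centred on the poly-A spike-ins, of the rises shown those of SNORA65, ARIH2OS, SCARNA14 and H2AC17 still passed.

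The promoters of some of these genes differ in 1 feature that can be read directly. In RefSeq's promoter table for GRCh38.p14, 11676 of the 14515 genes tested have an entry (80.4%). For each gene the first entry was read, and TATAAA was sought on the gene's strand. The letters, the consensus of the TATA box, lie wholly between 40 and 20 bases before the start in 2.73% of these promoters (319). Among genes that fell at least 2-fold it was 1.62% (25 of 1545 promoters) and among those that fell at least 4-fold 1.61% (8 of 498). Of 51 promoters of genes that rose at least 2-fold, 12 hold it (23.5%), 6 of them histone genes, but as only 64.6% of these genes have an entry that share is void as a check. The 100 bases before the start are shown for 3 genes that rose, 2 that fell although they hold the letters, and 2 that fell without them, with TATAAA in capitals:

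H2AC17 (rose), chr6:27893186-27893285, minus strand: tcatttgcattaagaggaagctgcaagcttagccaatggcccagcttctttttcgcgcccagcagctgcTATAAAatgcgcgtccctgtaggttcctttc
PTGS2 (rose), chr1:186680424-186680523, minus strand: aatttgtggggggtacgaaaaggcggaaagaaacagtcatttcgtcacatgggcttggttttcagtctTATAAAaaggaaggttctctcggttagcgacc
CCL20 (rose), chr2:227813742-227813841, plus strand: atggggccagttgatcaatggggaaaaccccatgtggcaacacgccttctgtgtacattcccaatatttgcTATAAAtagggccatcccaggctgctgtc
DUSP1 (fell), chr5:172771196-172771295, minus strand: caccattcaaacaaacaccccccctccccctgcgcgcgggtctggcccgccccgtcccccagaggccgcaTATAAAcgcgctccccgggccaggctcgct
DKK1 (fell), chr10:52314181-52314280, plus strand: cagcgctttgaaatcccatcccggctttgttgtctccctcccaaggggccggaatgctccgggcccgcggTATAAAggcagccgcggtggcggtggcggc
FADD (fell), chr11:70203196-70203295, plus strand: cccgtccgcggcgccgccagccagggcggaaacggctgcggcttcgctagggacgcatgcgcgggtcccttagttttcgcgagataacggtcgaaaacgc
NUP153 (fell), chr6:17706926-17707025, minus strand: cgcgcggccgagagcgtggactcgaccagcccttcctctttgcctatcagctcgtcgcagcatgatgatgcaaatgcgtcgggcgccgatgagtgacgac

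The letters begin 31 bases before the start in H2AC17, 32 in PTGS2, 29 in CCL20 and 30 in DUSP1 and DKK1, so the same feature stands before genes that rose and genes that fell. DUSP1 and DKK1 are richer in G and C (71% and 67% of the 100 bases) than PTGS2 (45%), H2AC17 and CCL20 (50% each). Over 250 bases, both strands searched, the share of promoters with GGGCGG was 68.6% among genes that fell at least 2-fold and 63.1% among all, that with CCAAT 37.2% and 34.5%, that with TTTGAA 10.9% and 9.17%, and that with TGACTCA, an AP-1 site, 2.39% and 2.98%. The median share of G and C was 64.8% against 64%. These shares are descriptions of letters in a fixed window and were not tested.

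On the deposited scale the message of the kinase that THZ2 targets was lower, while those of its partners were near their DMSO levels. CDK7 read 457 ± 33.5 (SD, n = 3) in DMSO and 122 ± 13.9 at 400 nM, a log2 change of -1.91 ± 0.12 (adjusted p = 9.53e-11, limma). Cyclin H (CCNH) was at 435 ± 60.8 and 458 ± 56.0 (log2 0.08 ± 0.15, limma adjusted p = 0.643) and MNAT1 at 229 ± 7.24 and 225 ± 24.1 (log2 -0.03 ± 0.12, adjusted p = 0.816). Of 8 TFIIH genes tested, ERCC3, a helicase, and GTF2H1 also fell, GTF2H5 rose by 0.62, and GTF2H3 and ERCC2, the other helicase, did not pass. With spike-in centring 5 of the 8 fell and none rose. The partners turned with the scale. CCNH passed as lower with spike-in centring (log2 -1.01, limma adjusted p = 0.0337). MNAT1 passed as higher with median centring (log2 0.28, limma adjusted p = 0.03).

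Of 25 genes of elongation control, 15 fell (60%, against 25% of all genes) and 2 rose (8%, against 37.9%). Their median log2 change was -0.66 (0.19 over all genes), and with spike-in centring 22 fell and none rose. MEPCE, which caps and stabilises the 7SK RNA that holds P-TEFb inactive, fell from 286 ± 42.5 to 38.8 ± 5.59 (7.36-fold), and LEO1, of the PAF1 elongation complex, from 103 ± 9.91 to 20.3 ± 3.65. Messages of the kinases of the polymerase tail were lower in part: the log2 change was -1.82 for CDK13, -1.32 for CDK12 and -0.81 for their cyclin CCNK. CDK9, the kinase of P-TEFb, fell by 1.10, but 1 of its 3 probe sets had the opposite sign. HEXIM1, an inhibitor of P-TEFb, was at 294 in DMSO, 515 at 25 nM, 409 at 100 nM and 149 at 400 nM, and cyclin T1 (CCNT1) at 45.5, 59.9, 68.1 and 29.5; both fell at 400 nM (log2 -0.98 and -0.64), with 2 of 5 probe sets of HEXIM1 of opposite sign.

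Of 12 subunits of RNA polymerase II, 6 rose and 2 fell (median log2 0.29), and 5 fell and none rose with spike-in centring; POLR2J rose by 0.52, POLR2D fell by 0.94, and POLR2A, the largest subunit, was at 194 ± 20.7 and 164 ± 34.6 (log2 -0.26 ± 0.14, limma adjusted p = 0.115). Of 23 genes of RNA polymerases I and III, 18 fell and none rose (78.3% against 25% of all genes, median log2 -0.64), and 10 still fell with none rising when arrays were centred on their median. POLR1B, the second largest subunit of polymerase I, fell 6.21-fold from 184 ± 16.5 to 29.8 ± 4.2. POLR3B, its counterpart in polymerase III, fell 4.79-fold.

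Messages of single subunits of Mediator, the complex that links enhancer-bound factors to the polymerase, fell strongly. MED26, the subunit that hands the polymerase over to elongation factors, read 274, 362 and 329 in DMSO and 22.9, 24.8 and 23.1 at 400 nM (log2 -3.76 ± 0.14). MED17, of the head module, fell 11.6-fold and MED9, of the middle module, 10.8-fold. In all 18 of 30 Mediator genes fell (60%, against 25% of all genes) and 4 rose (13.3%, against 37.9%). CCNC, the cyclin of the kinase module, rose by 0.83. With spike-in centring 23 Mediator genes fell and none rose. The changes within the complex ran from -3.76 to 0.83 over 30 genes, and those of the polymerase II subunits from -0.94 to 0.52 over 12. The lists differ in size and in level (median DMSO intensity 167.8 and 1016), so these ranges do not compare their spread.

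**Figure D3:**
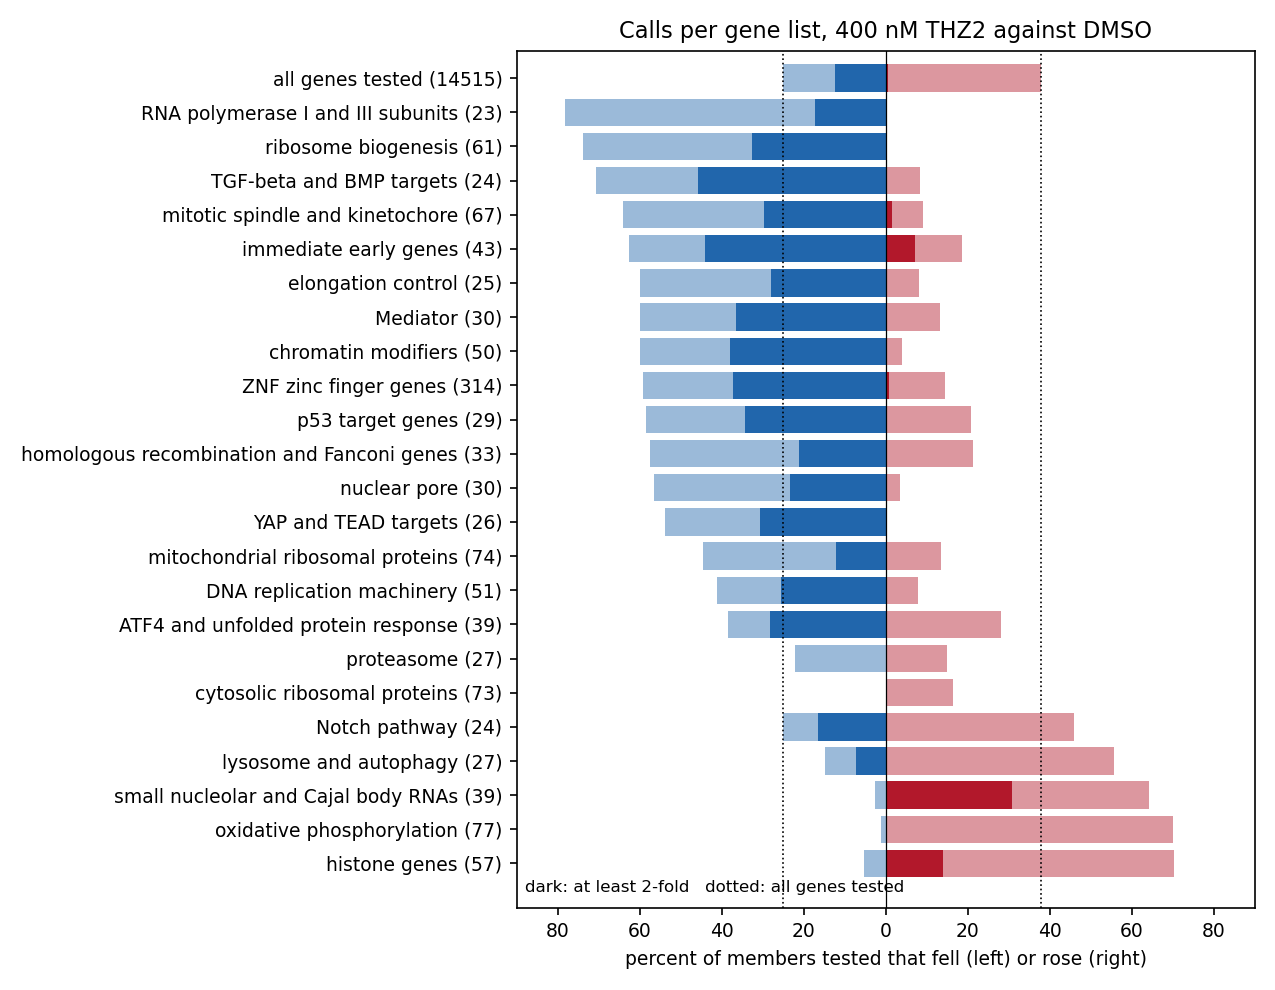
Bars give the percent of the tested members of each gene list (number in brackets) that fell (left, blue) or rose (right, red) at 400 nM THZ2; dark parts changed at least 2-fold, and dotted lines mark all genes (25% and 37.9%). RNA polymerase I and III subunits (78.3%) and ribosome biogenesis genes (73.8%) had the largest shares of falls shown, and histone genes (70.2%) and oxidative phosphorylation (70.1%) the largest of rises; with spike-in centring 1 histone gene and no oxidative phosphorylation gene rose.

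Immediate early genes, which respond to growth signals within minutes and whose messages are short-lived, split into a large group that fell and a small one that rose. Of 43 tested, 27 fell (62.8%, against 25% of all genes), 19 of them at least 2-fold, and 8 rose (18.6%, against 37.9%). Without replicate 2 of the 400 nM group 4 rose, and with spike-in centring none rose and 34 fell. The log2 change was -3.89 for FOSL1, -3.62 for DUSP5, which removes phosphate from ERK, -3.02 for DUSP1, its relative for stress kinases, and -3.22 for CSRNP1. JUN, an AP-1 subunit, fell from 235 ± 31.8 to 92.3 ± 5.15 (log2 -1.34 ± 0.12). EGR1 went the other way, from 32.9, 47.8 and 32.7 to 88.0, 108 and 111 (log2 1.45 ± 0.16), as did FOS, from 58.1, 61.4 and 48.5 to 116, 124 and 152 (log2 1.22 ± 0.18), and ARC (log2 1.11 ± 0.19). JUNB rose by 0.53. IER2 (309 ± 47.8 and 328 ± 46.3) and ATF3 (31.6 ± 2.30 and 38.5 ± 2.82) did not pass, with adjusted p of 0.573 and 0.0725 in limma.

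MYC, the growth-driving transcription factor, was at 33.5 ± 4.28 in DMSO, 79.5 ± 6.93 at 100 nM and 21.1 ± 5.29 at 400 nM. Its change at 400 nM against DMSO on the log2 scale was -0.69 ± 0.17 (adjusted p = 0.00263, limma). RUNX2, the master regulator of the osteoblast lineage, fell from 105 ± 13.9 to 22.2 ± 10.9 (log2 -2.34 ± 0.23), with 1 of its 2 probe sets of opposite sign. SOX9, of the cartilage lineage, TWIST1, a mesenchymal factor, and MSX2 had log2 changes of -2.54, -2.32 and -1.66. ALPL, BGLAP and SPP1, genes of matrix-forming osteoblasts, rose by 0.50 to 0.66 from DMSO means of 16 to 31.0, in the range where most genes that passed rose, and reversed with spike-in centring. COL1A1, collagen I, was at 179.6 ± 18.6 and 168 ± 44.0 (limma adjusted p = 0.542), with 4 of 5 probe sets of opposite sign.

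Falls in the cell cycle covered its brakes and its engine alike. CDC25A, the phosphatase that opposes WEE1, fell from 227 ± 16.6 to 21.3 ± 3.49 (10.7-fold), BORA, which helps activate PLK1, fell 8.44-fold and PLK1, a mitotic kinase, 3.07-fold. In the list of E2F factors, cyclins and their inhibitors, 20 of 34 fell and 2 rose: the log2 change was -2.74 for CCNE1, the cyclin of S-phase entry, and -3.14 for CDKN1B (p27), an inhibitor of CDK2. CDK1 itself fell by 0.68, and cyclin B1 (CCNB1) from 1290.2 ± 106 to 365 ± 35.1. With arrays centred on their median 17 of the 34 still fell, and 12 rose.

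Of 67 spindle and kinetochore genes, 43 fell and 6 rose (15 and 33 with median centring, in that order for rises and falls, and none and 57 with spike-in centring). AURKA, the centrosome kinase, fell from 2078 ± 191 to 274 ± 22.9 (7.59-fold), CDCA8 and TTK, a subunit of the chromosomal passenger complex and a checkpoint kinase, each 6.06-fold. CENPH, of the inner kinetochore, was the largest rise of the list at 1.01, from 106 ± 15.3 to 215 ± 34.4. Of 51 replication genes 21 fell and 4 rose (15 and 23 with median centring, 41 and none with spike-in centring), with a median log2 change of -0.09 that turned to 0.23 with median centring. GINS3, of the replicative helicase, fell 9.96-fold, MCM10 6.12-fold and RFC4, of the clamp loader, 5.43-fold.

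DNA repair genes behaved unevenly. PALB2, which joins BRCA1 and BRCA2, fell from 93.3 ± 13.9 to 12.4 ± 1.97 (log2 -2.91 ± 0.18), and BLM, a helicase, from 90.1 ± 17.2 to 20.5 ± 2.90. BARD1, the partner of BRCA1, fell by 1.94 on the log2 scale. In all 19 of 33 genes of homologous recombination and the Fanconi pathway fell and 7 rose, or 13 and 13 with median centring and 23 and none with spike-in centring. ATM, the kinase that senses breaks, rose by 0.75, with 2 of 4 probe sets of opposite sign.

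Survival genes were led by MCL1, a short-lived antiapoptotic BCL2 relative, which read 1428, 1499 and 1168 in DMSO and 139, 136 and 247 at 400 nM (log2 -3.02 ± 0.18, 8.11-fold lower). These are readings of its brightest probe set, and 1 of its 6 probe sets passed upward, by 0.53. BIRC2, an inhibitor of apoptosis protein, fell by 1.32. XIAP, its relative, fell by 0.72, although 3 of its 5 probe sets had the opposite sign. Of 10 antiapoptotic genes 6 fell (60%, against 25% of all genes) and 2 rose (20%, against 37.9%). It was 3 and 3 with median centring, and 8 and none with spike-in centring. FADD, the adaptor through which death receptors recruit caspase-8, went from 1046, 1201 and 1361 to 48.8, 44.3 and 45.3 (log2 -4.70 ± 0.16, 25.9-fold). TNFRSF1A, the TNF receptor that signals through it, fell 6.28-fold, with 1 of 4 probe sets of opposite sign. Of 14 death receptor genes 7 fell (50%) and 2 rose (14.3%), or 3 and 3 with median centring and 11 and none with spike-in centring. Of the 11 proapoptotic BCL2 relatives 4 fell (36.4%, against 25% of all genes), BBC3 (PUMA) most (log2 -1.24, 1 of 2 probe sets of opposite sign). As many, 4, rose, all by under 0.6 (36.4%, near the 37.9% of all genes). Without replicate 2 of the 400 nM group 1 rose, and with spike-in centring none did. The median DMSO intensity of these 11 genes, 186, lies in the quartile from 60.9 to 203.7. In that quartile 36.6% of all genes fell and 27.2% rose, so the share of falls is near that of genes of this level.

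Genes of p53 and of the 12q segment were not of 1 piece. MDM2, both a p53 target and a 12q gene, fell from 758 ± 139.6 to 377 ± 110.4 (log2 -1.03 ± 0.17), and 9 of its 11 probe sets passed, all downward. CDKN1A (p21), the best known p53 target, was at 673 ± 113 and 572 ± 70.6 (log2 -0.23 ± 0.14, limma adjusted p = 0.164), and CDK4 at 7547 ± 444 and 7187 ± 356 (log2 -0.07 ± 0.06, adjusted p = 0.307). Of 29 p53 targets 17 fell (58.6%, against 25% of all genes) and 6 rose (20.7%, against 37.9%). It was 16 and 7 without replicate 2, and 21 and none with spike-in centring. AEN, a nuclease, and PLK2 had log2 changes of -2.37 and -2.01, and CCNG1 rose by 0.57. On 12q, 7 of 19 genes fell (36.8%, against 25% of all genes) and 5 rose (26.3%, against 37.9%), or 7 and 9 with median centring and 13 and none with spike-in centring, DYRK2, a kinase that phosphorylates p53, falling 9.47-fold to 10.1 ± 1.61.

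Genes that build ribosomes fell in most cases. Of 61 ribosome biogenesis genes 45 fell, 20 of them at least 2-fold, and none rose (median log2 -0.67); with median centring 35 fell and 10 rose. IMP3 and MPHOSPH10, which work together on the small subunit precursor, fell 11.3- and 10.4-fold, NOP16 7.23-fold and RRS1 6.90-fold. None of 73 cytosolic ribosomal protein genes passed as lower on the deposited scale (1 did without replicate 2): 12 rose (7 without replicate 2), with a median of 0.08, whereas 70 rose and none fell with median centring, and 64 fell and none rose with spike-in centring. Mitochondrial ribosomal proteins were mixed, with 33 of 74 down, led by MRPL46 (3.92-fold) and MRPL10 (3.47-fold), 10 up, led by MRPL42 (1.57-fold), and a median of -0.22 that turned to 0.10 with median centring.

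Oxidative phosphorylation genes were mostly slightly higher on the deposited scale and not with spike-in centring. Of 77 tested 54 rose and 1, SDHA, fell, all by less than 2-fold (median log2 0.27); 44 rose without replicate 2, and with spike-in centring none rose and 21 fell. UQCRB of complex III rose most, from 315 ± 38.9 to 521 ± 71.1, and NDUFA5 of complex I rose by 0.64. Of 27 lysosome and autophagy genes 15 rose (55.6%, against 37.9% of all genes) and 4 fell (14.8%, against 25%). NPC2, a cholesterol carrier, was up by 0.82, MAP1LC3B up by 0.64 and ATG16L1 at -1.39. With spike-in centring none of the list rose and 11 fell. Proteasome genes all stayed within 2-fold. Of 27 tested 6 fell (22.2%, near the 25% of all genes) and 4 rose (14.8%, against 37.9%). It was 5 and none without replicate 2, none and 18 with median centring, and 24 and none with spike-in centring.

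Messages of the machinery that handles new transcripts were lower in selected parts. In the list of cleavage, Integrator and termination factors 22 of 40 fell and 7 rose (29 and none with spike-in centring). CSTF1, of the cleavage stimulation factor, fell 8.67-fold, CLP1, an RNA kinase of the cleavage machinery, 7.11-fold, and SCAF4 from 274 ± 48.2 to 17 ± 1.05. PABPN1, the nuclear poly(A)-binding protein, rose from 32.8 ± 2.15 to 69.0 ± 9.52. Of 43 splicing regulators 19 fell and 2 rose, and their median of -0.25 turned to 0.07 with median centring. CLK1, a kinase of SR proteins, fell 6.29-fold and RBM39, a splicing factor, 3.60-fold. Of 30 nuclear pore genes 17 fell and 1 rose (12 and 6 with median centring), with NUP62, of the central channel, falling 7.06-fold beside NUP153.

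Of 50 chromatin modifiers 30 fell and 2 rose, with a median log2 change of -0.74; with median centring 26 fell and 8 rose. ARID1A, the largest subunit of the BAF remodeler, fell from 317 ± 59.3 to 22.0 ± 5.65 (14.6-fold), CHD1, a remodeler that follows the polymerase, 11.2-fold, and CREBBP, an acetyltransferase coactivator, 9.06-fold, with 1 of 5 probe sets of CREBBP of opposite sign. HDAC3, a deacetylase, rose by 0.70. Zinc finger genes named ZNF, the largest family of human transcription factors, fell in 186 of 314 cases, 117 of them at least 2-fold, and rose in 45; with median centring 151 fell and 84 rose. Of 15 Krüppel-like factors 8 fell, each at least 2-fold, led by KLF10 (3.97-fold) and KLF2 (3.47-fold), and 2 rose; both rises were gone with spike-in centring. HOX genes fell in 10 of 24 cases and rose in 1, HOXC8 falling 3.99-fold, and their median of -0.19 turned to 0.13 with median centring.

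In signalling pathways, BAMBI, a decoy receptor for TGF-beta, fell 10.5-fold from 165 ± 22.0 to 15.7 ± 1.09, TGIF1, a SMAD corepressor, 10.1-fold, and SMAD7, an inhibitory SMAD, 5.79-fold. Of 24 TGF-beta and BMP genes 17 fell and 2 rose (12 and 6 with median centring). ID1, a BMP target, fell from 2505 ± 217 to 794 ± 15.8. YAP and TEAD targets fell in 14 of 26 cases and none rose (11 and 4 with median centring): CCN1 fell from 2291 ± 131 to 365 ± 50.9. In the Notch pathway 11 of 24 rose (45.8%) and 6 fell (25%), shares near the 37.9% and 25% of all genes. It was 7 and 6 without replicate 2, 17 and 4 with median centring, and none and 9 with spike-in centring. The largest changes included NOTCH1 up by 0.83 (1 of 3 probe sets of opposite sign), HES1, a target, up from 93.1 ± 9.07 to 157 ± 27.8 in its brightest probe set (log2 0.74) while another passed at -0.85, and the coactivator MAML1, with 1 of its 2 probe sets of opposite sign, at -2.33.

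Of 30 NF-kB genes 13 fell (43.3%) and 8 rose (26.7%), or 11 and 14 with median centring and 20 and none with spike-in centring, and the median of -0.09 turned to 0.23 with median centring. The median DMSO intensity of the list, 147.1, lies in the quartile from 60.9 to 203.7, where 36.6% of all genes fell and 27.2% rose. TNFAIP3 (A20), which shuts the pathway off, fell from 149 ± 15.7 to 15.6 ± 7.35 (10.2-fold), NFKBIE 5.45-fold and NFKBIA, the classic inhibitor, 2.90-fold. CCL20, a chemokine, read 15.5, 17 and 12.6 in DMSO and 39.4, 27.7 and 49.9 at 400 nM (log2 1.34 ± 0.18), IL6 read 91.8, 97.0 and 89.9 against 198, 179 and 246 (log2 1.15 ± 0.15), and CXCL3 rose by 1.04. For CCL20 and IL6 all 3 treated arrays lay above the DMSO range, as for 39.7% of all genes tested. The rule of the largest rises, which CCL20 met, requires this. The rises of CCL20, IL6 and CXCL3 did not pass with spike-in centring.

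Of 42 heat shock proteins and co-chaperones 20 fell and 5 rose, or 12 and 18 with median centring and 31 and none with spike-in centring. DNAJB1, a heat-inducible co-chaperone, fell from 435 ± 46.5 to 32.5 ± 2.87 (13.4-fold) and HSPA8, the constitutive HSP70, from 10836 ± 216 to 3717 ± 599.7 (2.94-fold), while HSF1, the heat shock factor, rose by 0.47. XBP1, a transcription factor of the unfolded protein response, fell 11.1-fold, DDIT4, an inhibitor of mTORC1, 6.67-fold, CEBPB 6.18-fold and DDIT3 (CHOP) 5.86-fold. ASNS, which makes asparagine and is a target of ATF4, rose by 0.74 and NUPR1 by 0.93. Of 39 genes of ATF4 and the unfolded protein response 15 fell and 11 rose (12 and 20 with median centring, 23 and none with spike-in centring). In polyamine metabolism MAT2A, which makes S-adenosylmethionine, fell from 1978 ± 156 to 227 ± 42.0 and AMD1, which decarboxylates it, fell by 1.83, opposite to SAT1.

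Among the noncoding RNAs, 25 of 39 small nucleolar and Cajal body RNAs rose (64.1%, against 37.9% of all genes), 12 of them at least 2-fold, and 1, SNORA33, fell; 19 rose without replicate 2 of the 400 nM group, and with spike-in centring 4 rose and 7 fell. The median DMSO intensity of the list, 20.1, lies in the dimmest quartile, where 54.5% of all genes rose. Their host genes did not move as 1 group: SNHG9 rose from 126 ± 3.33 to 314 ± 45.8, whereas SNHG7 fell from 938 ± 82.3 to 278 ± 57.1 and SNHG12 from 556 ± 31.0 to 242 ± 44.7. Of 57 histone genes 40 rose (70.2%), 8 of them at least 2-fold, and 3 fell (1 and 9 with spike-in centring). Their median DMSO intensity, 18.1, lies in the same dimmest quartile with its 54.5%. H2AC8 went from 51.3, 73.0 and 69.1 to 239, 229 and 198, and H3C1 from 7.62, 11.9 and 11.2 to 30.3, 24.8 and 24.6. Histone genes and small nucleolar RNAs have close copies, and their probe sets may read more than 1 of them. Whether these probe sets read the mature small RNAs and histone messages, or longer transcripts that hold the same letters, was not tested.

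Against 100 nM, 400 nM THZ2 was a further step for some genes and none for others. With limma 2843 genes differed between the doses (19.6%), 1576 lower at 400 nM (10.9%), 663 of them at least 2-fold (4.57%), and 1267 higher (8.73%), 47 of them at least 2-fold (0.324%). Of the 1818 genes that fell at least 2-fold against DMSO, 973 were also lower than at 100 nM, 708 did not differ from it and 137 were higher. Without replicate 1 of the 400 nM group 834 genes were higher than at 100 nM, without its replicate 3 1943, and without replicate 1 of the 100 nM group 809. With spike-in centring 1115 genes differed between the doses, 1 of them higher at 400 nM.

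One set of genes had means at 100 nM near those in DMSO and far lower ones at 400 nM. TRIB1, a pseudokinase scaffold of protein degradation, was at 122 ± 25.2 with DMSO, 171 with 25 nM, 128 ± 33.8 with 100 nM and 8.72 ± 2.0 with 400 nM (log2 -3.87 ± 0.20 against 100 nM, limma adjusted p = 2.18e-11). MED26 followed the same course, 322, 357, 314 and 23.6, as did CITED2, a brake on hypoxia signalling, with 348, 393, 374 and 31.7. CDKN1B stood at 260.3, 264, 246 and 29.4 and CLK1 at 144, 168, 159 and 22.7. SPRY2, an inhibitor of receptor tyrosine kinase signals, DYRK1A, a kinase, ING1, a chromatin reader with 2 of 5 probe sets of opposite sign against DMSO, and EPC2, of an acetyltransferase complex, had log2 changes from -3.27 to -3.17 against 100 nM.

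A smaller set was lowest at 100 nM on the deposited scale. With spike-in centring only 1 of all genes tested passed as higher at 400 than at 100 nM. E2F5, a repressive E2F factor, read 188 ± 24.2 with DMSO, 115 with 25 nM, 22.9 ± 1.86 with 100 nM and 89.3 ± 13.2 with 400 nM, so that the 400 nM arrays were higher than the 100 nM ones by 1.95 ± 0.15. MAU2, a loader of cohesin, went through 283, 178, 28.6 and 82.7 and ZNF232 through 187, 119.6, 22.3 and 51.1. OSGEPL1, a mitochondrial tRNA-modifying enzyme, was at 76.4, 42.5, 27.6 and 87.8, and its 400 nM level did not pass against DMSO (adjusted p = 0.273, limma). ANKRD46 went through 65.5, 52.8, 16 and 52.1, with 1 of its 2 probe sets of opposite sign against DMSO.

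A further set was highest at 100 nM. The immediate early list had a median log2 change against DMSO of 0.18 at 100 nM and of -0.69 at 400 nM, and 29 of its 43 genes were lower at 400 than at 100 nM. Besides MYC, IER2 peaked there (309, 336, 678 and 328 in order of dose), as did ID2 (70.1, 124, 314 and 103) and C11orf96 (23.8, 52.9, 281 and 77.5). Among the small RNAs the median was 0.82 at 100 nM and 0.43 at 400 nM, and 14 of 39 were lower at 400 nM, such as SNORA84, with means of 20.5, 33.9, 173 and 86.1. SAT1, at 179, 241, 986 and 586, also fell back. IL6 did the opposite, at 92.9, 64.7, 87.6 and 207, higher at 400 than at 100 nM by 1.24 ± 0.15 on the deposited scale.

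**Figure D4:**
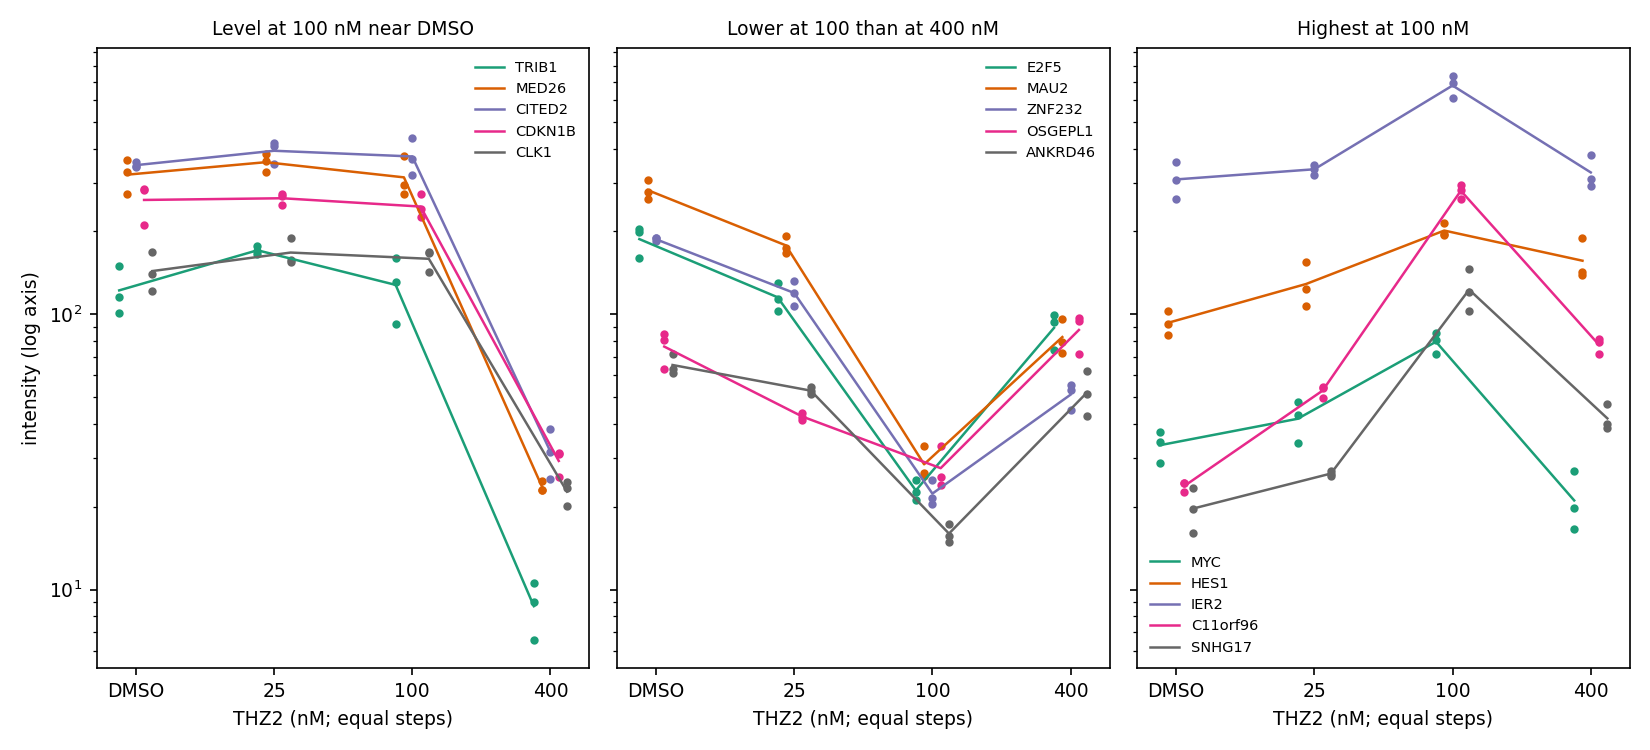
Intensity (log axis) in the DMSO, 25, 100 and 400 nM groups (x, equal steps), with 1 point per array and lines through the means of 3 arrays. Values are on the deposited scale, and with spike-in centring 1 of all genes tested was higher at 400 than at 100 nM. TRIB1, MED26, CITED2, CDKN1B and CLK1 have means at 100 nM near DMSO and drop at 400 nM (left); E2F5, MAU2, ZNF232, OSGEPL1 and ANKRD46 are lowest at 100 nM (middle); MYC, HES1, IER2, C11orf96 and SNHG17 are highest at 100 nM (right).

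Probe sets of the same gene did not always move together. Of 4561 genes with at least 2 probe sets that passed, 390 (8.55%) had passing probe sets of both signs, and in 7 of these both changes were at least 2-fold. For MCL1, 5 of 6 probe sets were lower, from -4.2 ± 0.32 to -0.40 ± 0.13, and 1 was higher by 0.53 ± 0.12, going from 237 ± 15.1 to 342.5 ± 28.8. ZMYND8, a chromatin reader, ran from -4.44 ± 0.22 to 0.54 ± 0.18 over 7 probe sets, and ASXL1, a Polycomb-associated factor, from -3.19 ± 0.15 to 0.72 ± 0.12. In AKAP13, an anchor of protein kinase A, 4 of 5 probe sets were lower and 1 rose by 1.16 ± 0.15. FADD had log2 changes of -4.73 and -4.70 in 2 probe sets, while the other, dim at 16.3 ± 1.32, did not pass (0.26 ± 0.15, adjusted p = 0.157, limma).

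**Figure D5:**
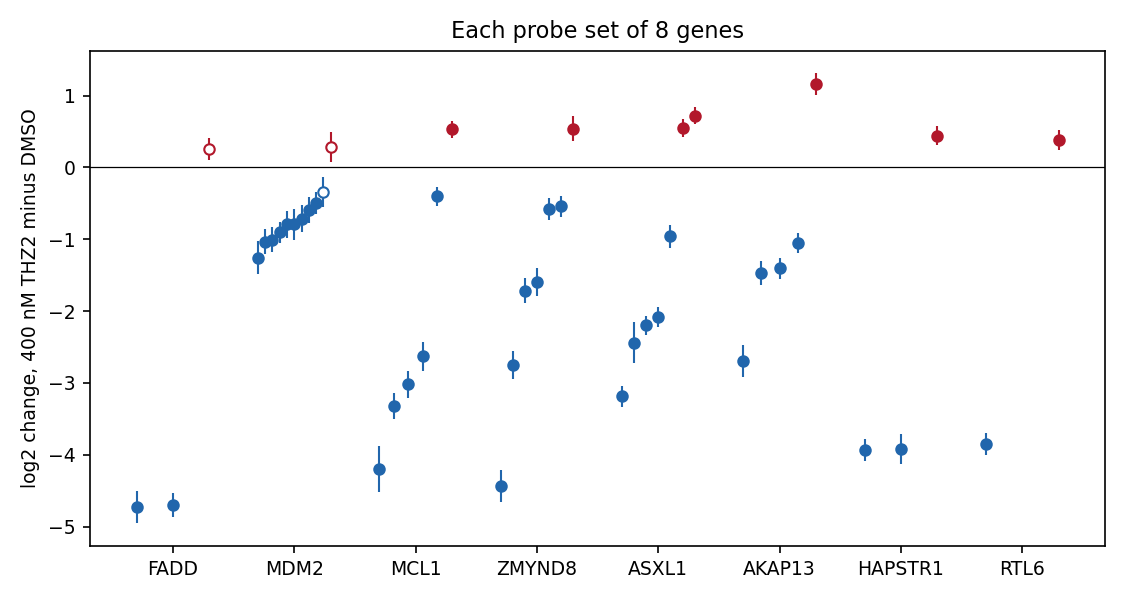
Log2 change at 400 nM THZ2 minus DMSO for every probe set above the filter of 8 genes, with standard errors from limma; blue is lower, red higher, and open circles did not pass. MDM2 spreads from -1.26 to 0.28 over 11 probe sets, and MCL1 from -4.2 to 0.53 over 6.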

How the data were processed

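Intensities of 24 arrays were deposited on a linear scale, with MAS5 and RMA named per the submitters' processing notes and versions not given in the sources used here. The log2 of the deposited SJSA-1 values all lay close to whole hundredths, and 0.487% of the U2-OS values lay as close. Log2 intensity was tested with no pseudocount. Of 49372 probe sets, 44994 named 1 gene, 1832 several and 2467 none, and 79 were controls. Of 18132 symbols 18112 were in RefSeq. Each gene was read from its brightest probe set over the 12 SJSA-1 arrays. Genes were tested where the highest group mean reached the 30th percentile (intensity 9.85), which left out 3617 and kept 14515.

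limma 3.58.1 in R 4.3.3 (lmFit, eBayes with an intensity trend) was fitted with 4 group means to the 12 arrays (8 residual degrees of freedom), with Benjamini-Hochberg adjustment over all genes and a threshold of 0.05. The scripts were tested on simulated data. A fold against a group below the filter is given as "at least". An exact permutation test of 3 arrays against 3 cannot go below p = 0.1, so none is given. The number of arrays limits the precision. Genes eligible to be named were a fixed set of transcription kinases and of immediate early, lineage, survival and p53 genes, the 25 largest falls and rises and the 12 largest of each against 100 nM (passing, arrays outside the other group's range, brighter group above the 50th percentile of intensity, 24.4, probe sets of 1 sign in the contrast ranked), the 5 largest changes of each list in its commoner direction and 3 in the other, and the 8 widest gaps between passing probe sets of opposite sign; the text names part of these. ALPL, CCNB1, COL1A1 and DDIT3 fall outside this rule and were chosen after their values were seen, as were the printed promoters. Members and lists were chosen with earlier results of these data known. Same-numbered DMSO and 400 nM arrays deviated with correlations of -0.19, 0.088 and -0.56, so the numbers were not taken to pair them. Alternatives were other centrings, quantile normalization, filters, pseudocounts, the mean of probe sets, other sets of arrays, a replicate block and leaving out each array; list counts without replicate 2 at 400 nM were added after seeing the data.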

Additional observations from a re-analysis of the deposited data

How the results depend on the processing

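The counts of falls were the steadier ones. The count of genes called was 9137, and 9071 with the replicate number as a replicate block (5437 higher, 3634 lower), which kept every count within 1.5 times, and same-numbered arrays did not deviate together. Leaving out 1 array at a time gave 7724 to 9378 genes called, 4170 to 5647 higher, 3371 to 3731 lower, 1834 to 1953 changed at least 2-fold, 71 to 116 of them higher and 1763 to 1853 lower. Against 100 nM the range was 2138 to 3758 genes, 809 to 1943 higher and 1235 to 1815 lower.

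With spike-in centring 6 genes rose and 7236 fell, 6441 changed at least 2-fold (5 higher, 6436 lower), and against 100 nM 1115 differed, 1 of them higher. With median centring 9077 rose, 595 at least 2-fold. The filter at the 50th percentile left 3625 rises, from fewer genes tested. Genes risen at least 2-fold numbered 157 with quantile normalization, 51 with the mean of probe sets, 25 with a pseudocount of 16 and 6 with one of 64, which also left 701 changed at least 2-fold, 695 of them lower. With all 24 arrays 4567 genes differed from 100 nM, 2600 of them higher. The cause was not tested except where the setting itself tests fewer genes or shrinks dim ones.

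Of 54 list medians, 30 were below 0 and 24 above; median centring turned 10 of the former upward and spike-in centring all 24 of the latter downward. The log2 change of single genes changed sign as follows. With spike-in centring it was ALPL -0.59, ASNS -0.35, ASXL1 -0.54, ATF3 -0.81, ATM -0.34, BGLAP -0.43, CCNC -0.26, CCNG1 -0.52, CCNH -1.01, CENPH -0.078, CXCL3 -0.051, ERCC2 -0.85, GTF2H3 -0.83, GTF2H5 -0.47, HDAC3 -0.39, HES1 -0.35, HSF1 -0.62, ID2 -0.54, IER2 -1.0, JUNB -0.56, MAP1LC3B -0.45, MRPL42 -0.44, NDUFA5 -0.45, NOTCH1 -0.26, NPC2 -0.27, NUPR1 -0.16, OSGEPL1 -0.89, PABPN1 -0.024, POLR2J -0.57, SPP1 -0.51, UQCRB -0.37, and for the tissue markers CD68 -0.34, EPCAM -0.40, GFAP -0.62, PECAM1 -0.43, SNAP25 -0.58. With median centring it was CDK4 0.25, CDKN1A 0.09, COL1A1 0.20, GTF2H1 0.02, MNAT1 0.28, POLR2A 0.057. With the mean of probe sets it was ANKRD46 0.09, ASXL1 -1.37, COL1A1 0.044, with quantile normalization COL1A1 0.024, MNAT1 0.067, and with all 24 arrays ANKRD46 0.52, ATM -0.033. Leaving out 1 array at a time gave values from -0.042 to 0.15 for CCNH, from -0.32 to 0.022 for COL1A1, from -0.028 to 0.20 for IER2 and from -0.12 to 0.015 for MNAT1, none of which passed with all arrays.

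Spike-in readings, dim genes and 3 arrays per group limit what these values can show, and signals near the filter have little room to fall.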
